A study of Mus musculus with 6 samples.

Results

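The genes described here encode the enzymes and carriers that bring pyruvate into the mitochondrion, oxidise it in the tricarboxylic acid (TCA) cycle, and move reducing equivalents across the inner membrane by the malate-aspartate shuttle. They were 33 genes taken by symbol from a fixed list, and all 33 were found among the 54532 genes of the table. Expression was measured by RNA sequencing in hearts of wild-type (WT) ICR mice at day 4, in a series on diabetes in pregnancy and the hearts of the offspring. ICR is an outbred stock, so animals differ genetically. Mothers of the control group (n = 3) received citric acid and those of the STZ group (n = 3) received STZ, in each case as an intraperitoneal injection while pregnant. STZ is read here as streptozotocin, a toxin of pancreatic beta cells that is used to raise blood glucose. The labels give no dose, no maternal glucose, no litter and no pooling, and do not say from what event day 4 is counted. Where hearts share a mother is thus unknown, and the p-values below measure only the spread between these 6 samples.

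In oxidative tissue pyruvate crosses the inner mitochondrial membrane through a carrier, is converted to acetyl-CoA by the pyruvate dehydrogenase complex, and condenses with oxaloacetate to citrate. The cycle then yields reduced cofactors for the respiratory chain. The malate-aspartate shuttle pairs cytosolic and mitochondrial malate dehydrogenases and aspartate aminotransferases with exchange carriers, so that cytosolic NADH can be oxidised in mitochondria. Around birth the heart shifts from glycolysis toward mitochondrial oxidation, mainly of fatty acids, and cardiomyocytes are its most mitochondria-rich cells.

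The deposited values correspond to between 16707268 and 18082599 reads per library and are given as FPKM, a level per gene length and per library scale. Control 2 stood apart from the other 5 hearts. All 10 cardiomyocyte markers were lower in it, at 23.6% to 78.0% of the mean of controls 1 and 3, and the summed level of the list was 7355 FPKM there and 14400 to 17130 FPKM elsewhere. The summed level of 7 atrial markers was 6250 FPKM in control 2 and 42.2 to 124 FPKM elsewhere, with Myl7, the atrial light chain, at 3930 FPKM and at 2.92 to 18.3 FPKM in the others. Sums of 10 fibroblast markers (1981 against 852 to 1087 FPKM), 8 macrophage markers (107.5 against 43.9 to 55.6 FPKM) and 7 erythroid markers (14550 against 2229 to 4927 FPKM) were also highest in control 2. Not all other cell types were higher there. The sum of 8 endothelial markers was lowest in control 2 (244.9 against 319.2 to 383.3 FPKM). That of 7 smooth muscle and pericyte markers was lowest by a small margin (138.5 against 139.3 to 181.6 FPKM). Adipocyte markers were present in that library: Ucp1, the uncoupling protein of brown fat, was at 213 FPKM and Adipoq, encoding adiponectin, at 20.5 FPKM, and both were listed at 0 in the other 5 hearts. Skeletal muscle markers summed to 20.2 FPKM in control 2 and 0.666 to 1.24 FPKM elsewhere. Epicardial and mesothelial markers summed to 87.3 FPKM there and 20.7 to 42.8 FPKM elsewhere, and Rag1, a recombinase of developing lymphocytes in the thymus, was at 25.5 FPKM and at 0.198 to 0.536 FPKM in the others. The labels do not say how the hearts were dissected, and the part of tissue other than heart in this library was not tested. In whole-heart RNA fewer cells of a type and less RNA per cell cannot be told apart, and fold changes that move with this library are given with and without it. By Xist and Y-linked transcripts, control 3 was the 1 female heart, and Pdha1 and Idh3g are the X-linked genes among the 33.

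Expression of the 33 genes spanned from 0.859 FPKM (Ogdhl in control 1) to 724 FPKM (Mdh1 in control 1). Cytosolic malate dehydrogenase, encoded by Mdh1 (GRCm38 chromosome 11, 21556787 to 21572367, minus strand), was at 724, 387 and 640 FPKM in controls 1 to 3 and at 681, 607 and 574 FPKM in STZ 1 to 3. Idh2 (chromosome 7, 80094846 to 80115392, minus strand), the mitochondrial NADP-dependent isocitrate dehydrogenase, was at 614, 315 and 541 FPKM in control and 633, 627 and 543 FPKM in the STZ group. These were the most abundant transcripts of the 33, and 19 of the 33 had a mean of at least 50 FPKM. At the other end stood Ogdhl, Pcx and Me3, with group means of 1.55 to 3.65 FPKM. Reads per gene and library ran from 60 to 31299. Summed over the 33 genes the level was 4254, 2354 and 3834 FPKM in controls 1 to 3 and 4071, 3784 and 3747 FPKM in STZ 1 to 3, so that the STZ hearts lay close to controls 1 and 3.

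**Figure D1:**
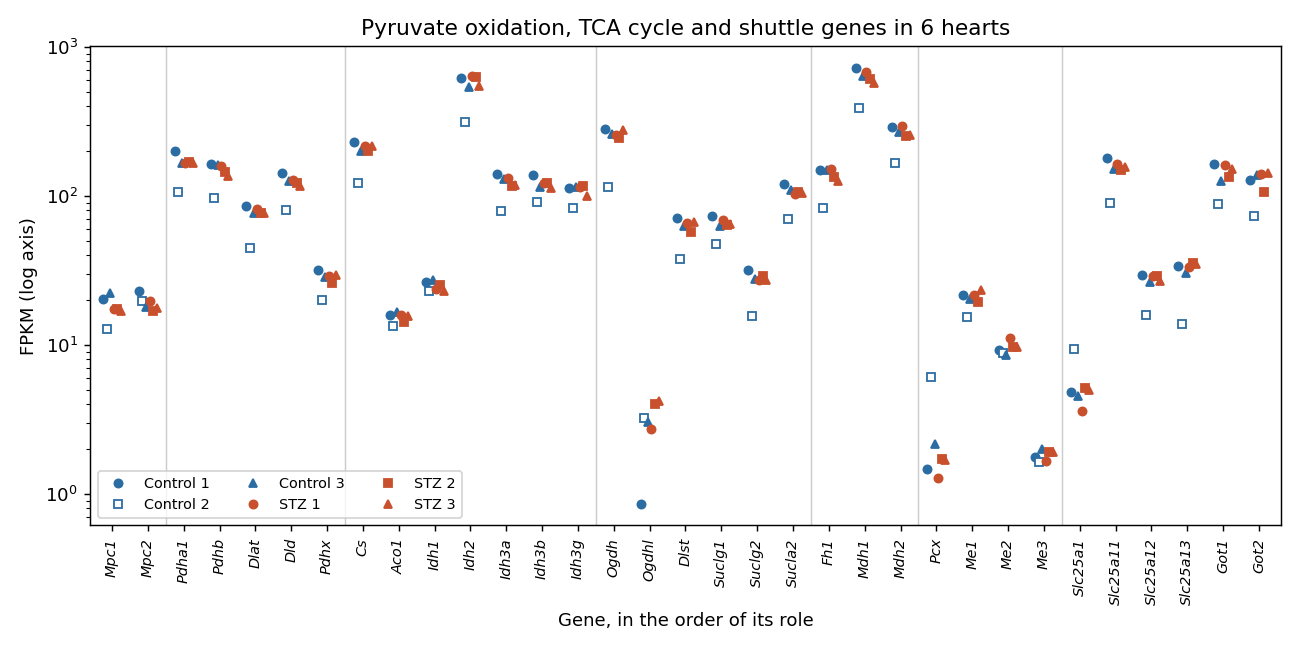
FPKM of each of the 33 genes (log axis) in each heart, controls in blue and STZ in orange, with control 2 as open squares and genes ordered by role. Control 2 is the lowest of the 6 hearts for 27 of the 33 genes and the highest for 2, Pcx and Slc25a1.

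In FPKM control 2 was the lowest library for 27 of the 33 genes (81.8%), as it was for 41.8% of all 12431 genes tested. The FPKM divisor of control 2 was 1.21 times its recovered reads, against 0.985 to 1.03 times elsewhere. This lowers control 2 for all genes alike. On RPM (recovered reads scaled to the library total), control 2 was not the lowest heart for Aco1 and Me3. Aco1 was at 72.1 against 64.8 RPM in STZ 2, and Me3 at 28.8 against 24.4 RPM in STZ 1. The others of the 27 stayed lowest on that scale. In FPKM the median of the 33 genes in control 2 was 60.3% of the mean of controls 1 and 3. That of all genes tested was 92.9%. The lowest shares were those of Ogdh, at 42.4%, and Slc25a13, at 43.3%, close to the cardiomyocyte marker median of 44.0%. Mpc2 (97.1%) and Me2 (99.1%) were nearly level, and Ogdhl (166%), Slc25a1 (201%) and Pcx (338%) were higher in control 2 than in the other control hearts. Among the STZ hearts the 33 genes varied little, with a median coefficient of variation of 6.89% and values under 10% for 29 of them. Ogdhl was the most variable, at 22.1%.

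None of the 33 genes passed the test between the groups. With limma on log2(FPKM + 1), 0 of 33 were higher in STZ hearts at a Benjamini-Hochberg (BH) adjusted p under 0.05, where 0.0161% of the 12431 genes were, and 0 were lower, where 0.00804% were. At an unadjusted p under 0.05 the count was also 0, and voom on reads recovered from the values called 0. The adjusted p of the 33 genes lay between 0.922 and 0.993. Of the log2 fold changes (STZ over control), 28 were positive and 5 negative, with a median of 0.13, against 7176 positive and 5255 negative and a median of 0.03 over all genes tested. Without control 2 the split turned to 7 positive and 26 negative with a median of -0.08, against a median of -0.0016 over all genes. There 31 of the 33 fold changes were within 0.2 log2 units of 0, and the adjusted p was 0.9999 for all of them. The direction of the median thus rested on control 2, whose cardiomyocyte markers were at a median of 44.0% of controls 1 and 3; their part in the difference was not tested. The mean of the STZ hearts fell between controls 1 and 3 for 17 genes, below both for 13 and above both for 3.

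**Figure D2:**
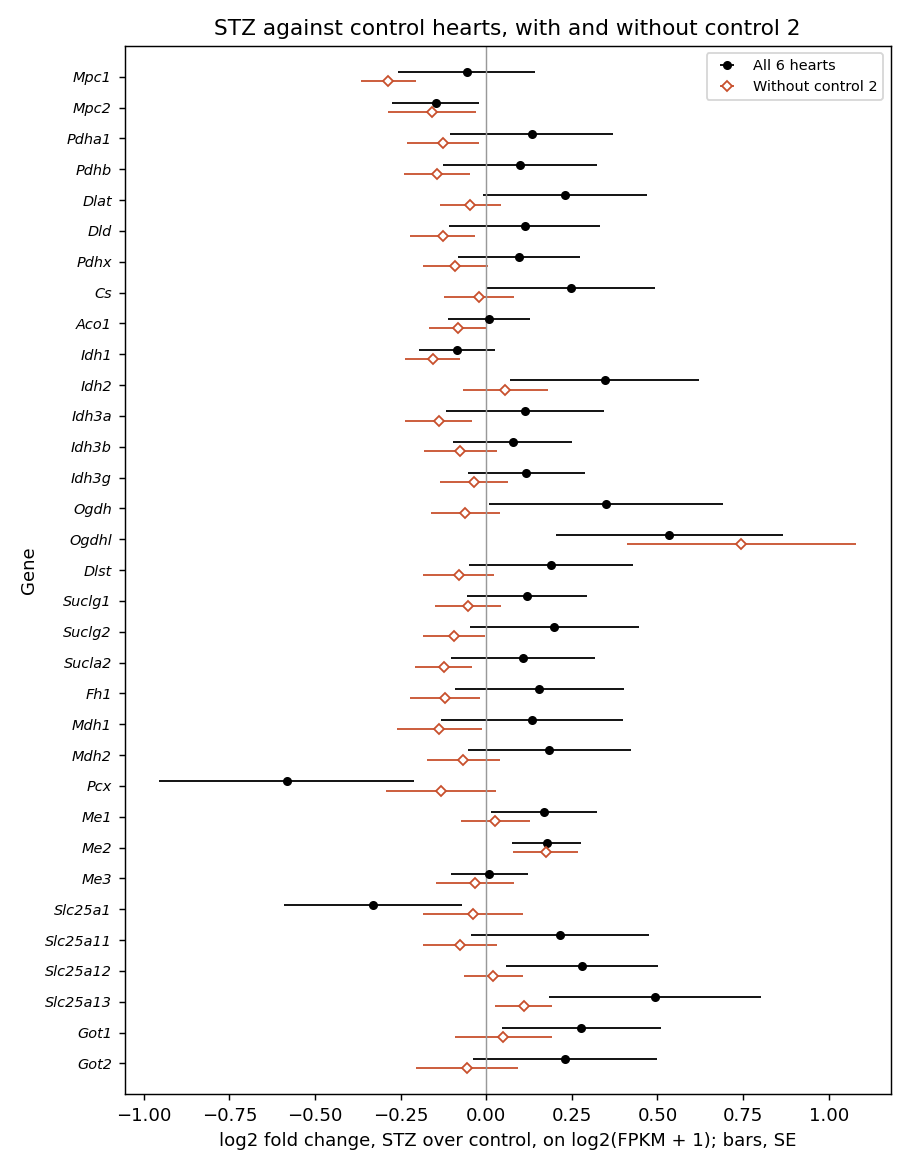
log2 fold change of each gene, STZ over control, on log2(FPKM + 1), with bars of 1 SE from limma. Filled black points use all 6 hearts, of which 28 of 33 are above 0, and open orange points leave out control 2, of which 26 of 33 are below 0.

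Only Me2, the mitochondrial NAD-dependent malic enzyme that turns malate into pyruvate, had groups that did not overlap in FPKM. It was at 9.27, 8.82 and 8.53 FPKM in control and 11.1, 9.72 and 9.68 FPKM in the STZ group, a log2 fold change of 0.18 (SE 0.1; 95% interval -0.06 to 0.42; BH-adjusted p = 0.922 by limma). The exact two-sided permutation test of the 6 values gave p = 0.1, the smallest that 3 against 3 samples allow. In FPKM every STZ value of Me2 lay above every control value, and control 2 stood within the range of the other control hearts. The fold change was 0.17 without control 2. The separation of Me2 did not hold on the RPM scale. Me2 was at 22.4, 26.1 and 21.2 RPM in control and 27.7, 24.0 and 24.4 RPM in STZ hearts. Control 2 was there above both other control hearts and above STZ 2 and STZ 3. By FPKM, 1 of 33 genes separated with STZ higher, where 4.92% of all genes tested do. With STZ lower it was 0 of 33, where 3.62% do. Against controls 1 and 3 alone, 4 genes lay below both control hearts in all 3 STZ hearts, Mpc1, Pdhb, Idh1 and Sucla2, where 8.55% of all genes do, and Me2 lay above, where 9.16% do.

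The mitochondrial pyruvate carrier is a complex of the Mpc1 and Mpc2 proteins. Mpc1 was at 20.2, 12.8 and 22.3 FPKM in control and 17.3, 17.5 and 16.9 FPKM in the STZ group. Controls 1 and 3 were above all STZ hearts and control 2 below all of them. The log2 fold change of Mpc1 was -0.06 (SE 0.199) with all hearts and -0.29 (SE 0.0803) without control 2, where it was the 1 gene of the 33 at an unadjusted p under 0.05 (BH-adjusted p = 0.9999 by limma). Without control 3 it was 0.09. Mpc2 was at 22.9, 19.8 and 17.9 FPKM in control and 19.8, 16.8 and 17.7 FPKM in the STZ group, so the groups overlapped, and its log2 fold change was -0.15 (SE 0.128) and -0.16 without control 2.

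The Mpc1 values carry a limit from sequence copies. Mpc1-ps, a processed pseudogene (an intronless copy) on chromosome 12 from 110858565 to 110858894, matches Mpc1 transcripts at 99.7% of aligned bases over its 330 bases. It was at 219, 201 and 214 FPKM in control and 186, 207 and 201 FPKM in the STZ group, and copies held 64.8% of the reads given to Mpc1 and its copies together. Summed over gene and copies, RPM (recovered reads scaled to the library total) were 113, 112 and 118.5 in control and 98.8, 105 and 104 in STZ hearts. On this RPM scale all 3 STZ sums lay below all 3 control sums, and control 2 did not stand apart in them. With recovered read totals 7.98% of all genes tested separate in either direction. Scaling to recovered totals was chosen after seeing the data. The FPKM of Mpc1 and of Mpc1-ps each overlapped between the groups. The FPKM scale divides the reads of control 2 by 1.21 times their recovered total, against 0.985 to 1.03 times in the other hearts. With that divisor the sum of control 2 falls below those of the STZ hearts, so the separation of the sums holds only on the RPM scale. The log2 difference of the summed RPM was -0.16 with all hearts and -0.17 without control 2. How reads were split between the gene and its copies is not given in the sources used here.

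The pyruvate dehydrogenase complex joins pyruvate decarboxylase subunits (Pdha1 and Pdhb), an acetyltransferase core (Dlat), a dihydrolipoyl dehydrogenase (Dld) shared with the oxoglutarate complex, and a binding protein for it (Pdhx). All 5 genes had a positive fold change with all hearts and a negative one without control 2, and 0 of 5 passed the test. Pdha1, the phosphorylated and regulated subunit, was at 199, 106 and 166 FPKM in control and 165, 169 and 166 FPKM in the STZ group. Its STZ values agreed within 2.24 FPKM (SD) and lay close to control 3, and its log2 fold change was 0.13 (SE 0.238) and -0.13 without control 2.

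Pdhb was at 162, 97.2 and 161 FPKM against 159, 145 and 136 FPKM, with a log2 fold change of 0.10 that became -0.14. Dlat was at 85.5, 45.0 and 76.2 FPKM against 81.2, 76.7 and 76.7 FPKM (0.23, and -0.05 without control 2). Dld was at 142, 80.7 and 126 FPKM against 128, 122 and 117 FPKM (0.11, and -0.13). In each of these genes control 2 was the lowest heart and control 1 the highest. Pdhx was at 31.8, 20.1 and 28.5 FPKM against 29.1, 26.0 and 29.6 FPKM (0.09, and -0.09), and its ratio to Dlat was 0.340 to 0.448 in the 6 hearts.

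Citrate synthase, encoded by Cs (chromosome 10, 128337734 to 128362479, plus strand), catalyses entry into the cycle and is often measured as an index of mitochondrial content. Cs was at 229, 122 and 199 FPKM in control and 215, 199 and 218 FPKM in the STZ group. The STZ values fell within the range of controls 1 and 3, and the log2 fold change of 0.25 (SE 0.245) was -0.02 without control 2. The NAD-dependent isocitrate dehydrogenase of the cycle is built from Idh3a, Idh3b and Idh3g. Idh3a was at 141, 79.3 and 129 FPKM against 132, 117 and 119 FPKM (log2 fold change 0.11, and -0.14 without control 2).

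Idh3b was at 138, 91.3 and 115 FPKM against 123, 122 and 113 FPKM, and the X-linked Idh3g at 113, 82.3 and 114 FPKM against 116, 117 and 100.4 FPKM. The female heart, control 3, was level with control 1 for Idh3g and below it for Pdha1. The regulatory subunits Idh3b and Idh3g were less reduced in control 2, at 72.3% and 72.5% of controls 1 and 3, than the catalytic Idh3a at 58.7%. Idh1, the cytosolic NADP-dependent isocitrate dehydrogenase, stood there at 85.9% and Aco1, the cytosolic aconitase that also binds iron-responsive RNA elements, at 81.7%. Idh1 was at 26.5, 23.1 and 27.4 FPKM against 23.9, 25.3 and 23.1 FPKM (log2 fold change -0.09, SE 0.112; -0.16 without control 2). Aco1 had a log2 fold change of 0.01 (SE 0.119; 95% interval -0.27 to 0.29), and -0.08 without control 2.

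Ratios of genes within a heart do not depend on the library scale, and 10 pairs were compared. The ratio of Idh2 to Idh1 was 23.2, 13.6 and 19.7 in control and 26.5, 24.8 and 23.6 in STZ hearts, a log2 difference of 0.44. The ratio of Idh2 to Idh3a was 4.36, 3.98 and 4.18 in control and 4.78, 5.37 and 4.56 in STZ hearts, a log2 difference of 0.23. All 3 STZ ratios lay above all 3 control ratios in both pairs, which share Idh2. Each had an exact two-sided permutation p of 0.1, the smallest that the design allows, and 0.5 after BH adjustment over the 10 pairs. Without control 2 the log2 differences were 0.22 and 0.20. Idh2 itself had a log2 fold change of 0.35 (SE 0.276; BH-adjusted p = 0.922 by limma), and 0.06 without control 2.

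**Figure D3:**
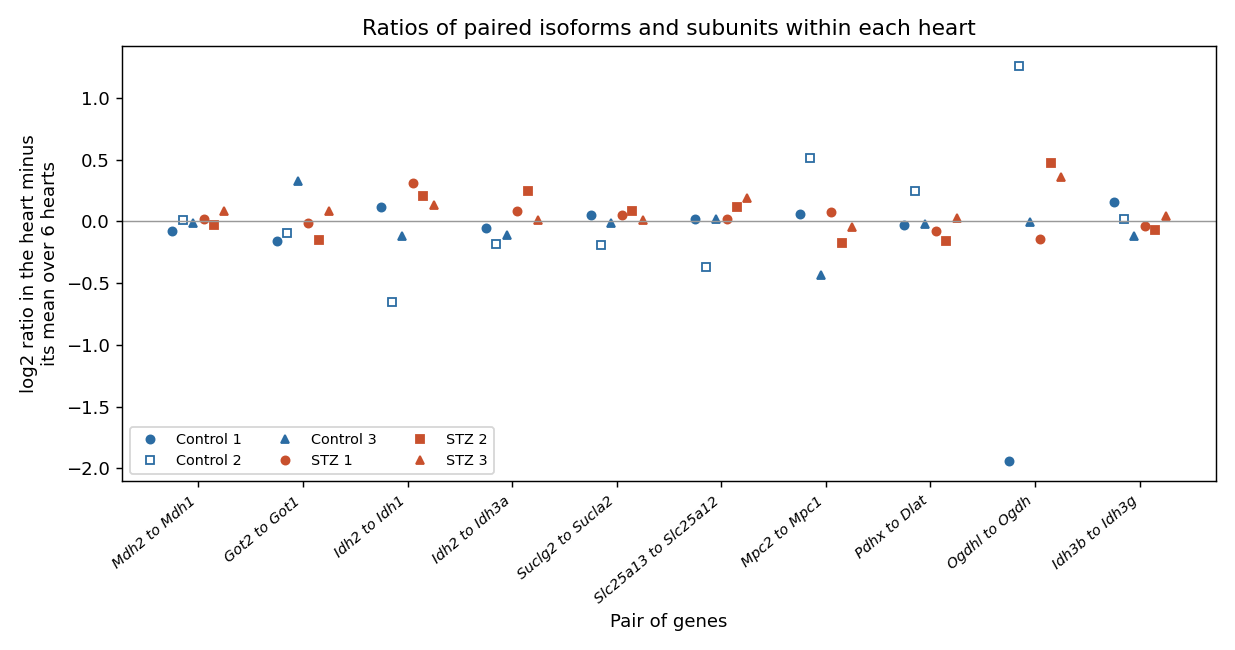
log2 ratio of 10 pairs of genes in each heart minus the mean of that ratio over the 6 hearts, controls in blue, STZ in orange and control 2 as open squares. STZ hearts lie above all control hearts for Idh2 to Idh1 and for Idh2 to Idh3a, and the groups overlap for the other 8 pairs.

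The oxoglutarate dehydrogenase complex converts oxoglutarate to succinyl-CoA with Ogdh and Dlst as its dehydrogenase and succinyltransferase. Ogdh (chromosome 11, 6291633 to 6356642, plus strand) was at 280, 115 and 260 FPKM in control and 254, 246 and 278 FPKM in the STZ group. Control 2 was far below the other 5, which overlapped, and the log2 fold change moved from 0.35 (SE 0.341) to -0.06 without it. Dlst was at 71.1, 37.6 and 62.8 FPKM against 66.0, 57.6 and 66.3 FPKM (0.19, and -0.08). Ogdhl, a paralog of Ogdh, was at 0.859, 3.25 and 3.06 FPKM in control and 2.72, 4.02 and 4.21 FPKM in the STZ group. Its low value was that of control 1, and its log2 fold change of 0.53 (SE 0.331) was 0.15 without control 1 and 0.74 without control 2. As Ogdhl is low, the pseudocount moved it, to 0.24 with a pseudocount of 5.

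Succinyl-CoA synthetase pairs the shared Suclg1 subunit with Sucla2 (ATP-forming) or Suclg2 (GTP-forming). Suclg1 was at 73.4, 47.4 and 63.2 FPKM in control and 68.6, 63.6 and 64.9 FPKM in the STZ group (log2 fold change 0.12, and -0.05 without control 2). Sucla2 was at 120, 70.4 and 110 FPKM against 103, 107 and 105 FPKM (0.11, and -0.12), with all STZ hearts below controls 1 and 3 and above control 2. Suclg2 was at 31.8, 15.7 and 27.8 FPKM against 27.4, 28.9 and 27.1 FPKM (0.20, and -0.09). Sucla2 was the more abundant subunit in every heart: the ratio of Suclg2 to Sucla2 was 0.265, 0.223 and 0.253 in control and 0.265, 0.271 and 0.258 in STZ hearts (log2 difference 0.10; exact two-sided permutation p = 0.3, BH-adjusted 0.6), and the difference was 0.03 without control 2. A pseudogene copy of Suclg2, Gm15163 on chromosome X, held 6.25% of the summed reads, and the summed log2 difference of 0.15 was close to the 0.14 of Suclg2 alone on the same RPM scale. Without control 2 these differences were -0.08 and -0.07.

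Fh1 encodes fumarase, which makes malate, and Mdh2 the mitochondrial malate dehydrogenase that closes the cycle. Fh1 was at 149, 83.2 and 148 FPKM in control and 150, 134 and 126 FPKM in the STZ group (log2 fold change 0.16, and -0.12 without control 2). Mdh2 was at 290, 165 and 268 FPKM against 292, 252 and 257 FPKM (0.18, and -0.07). The fold change of the cytosolic Mdh1 was 0.13 (SE 0.267) and -0.14 without control 2. The ratio of Mdh2 to Mdh1 stayed in a narrow range, at 0.401, 0.426 and 0.419 in control and 0.429, 0.415 and 0.448 in STZ hearts, and control 2 lay within it (log2 difference 0.05; exact two-sided permutation p = 0.4, BH-adjusted 0.667).

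In the malate-aspartate shuttle, Got1 and Got2 are the cytosolic and mitochondrial aspartate aminotransferases. Got1 was at 162, 88.4 and 126 FPKM in control and 161, 133 and 152 FPKM in the STZ group (log2 fold change 0.28, SE 0.233; 0.05 without control 2). Got2 was at 128, 73.0 and 139 FPKM against 140, 106 and 142 FPKM (0.23, SE 0.269; -0.06 without control 2). STZ 2 was the lowest STZ heart for both. The pseudogene Got2-ps1 on chromosome 5, with 99.1% identity to Got2 transcripts, was uneven among hearts: control 1 had 23.0 FPKM and STZ 2 had 18.8 FPKM, with between 0.723 and 2.96 FPKM in the other 4. Got2 copies held at most 4.60% of the summed reads of any heart, and the log2 difference of 0.17 was the same for Got2 alone and for the sum, and turned to -0.03 for Got2 alone and -0.04 for the sum without control 2.

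Slc25a11 carries oxoglutarate against malate, and Slc25a12 and Slc25a13 encode the aspartate-glutamate carriers aralar and citrin. Slc25a11 was at 180, 89.5 and 151 FPKM in control and 164, 150 and 156 FPKM in the STZ group (log2 fold change 0.22, and -0.08 without control 2). Slc25a12 was at 29.4, 15.9 and 26.6 FPKM against 29.2, 29.1 and 26.9 FPKM (0.28, and 0.02). Slc25a13 was at 33.6, 13.8 and 30.4 FPKM against 33.4, 35.7 and 34.7 FPKM (0.49, SE 0.31; 95% interval -0.24 to 1.23). The 5 hearts other than control 2 lay between 30.4 and 35.7 FPKM of Slc25a13, and without control 2 its log2 fold change was 0.11 (SE 0.0839). Citrin transcripts exceeded those of aralar in 5 hearts, with a ratio of 1.14 to 1.29, and were lower in control 2, at 0.871. The log2 difference of this ratio was 0.22 (exact two-sided permutation p = 0.2, BH-adjusted 0.6), and 0.09 without control 2.

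Pcx, encoding the pyruvate carboxylase that refills oxaloacetate, and Slc25a1, the citrate carrier that exports citrate for lipid synthesis, ran the other way in control 2. Pcx was at 1.46, 6.12 and 2.17 FPKM in control and 1.27, 1.71 and 1.69 FPKM in the STZ group. Slc25a1 was at 4.80, 9.40 and 4.56 FPKM against 3.58, 5.17 and 4.98 FPKM. For both genes control 2 was the highest heart, and it was also the only one with Ucp1, at 213 FPKM, and Adipoq. The part of adipocyte RNA in these values was not tested. The log2 fold change was -0.58 (SE 0.372) for Pcx and -0.33 (SE 0.26) for Slc25a1, and -0.13 and -0.04 without control 2. With a pseudocount of 5 the values were -0.29 for Pcx and -0.21 for Slc25a1.

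The cytosolic malic enzyme Me1 was at 21.5, 15.3 and 20.5 FPKM in control and 21.6, 19.3 and 23.5 FPKM in the STZ group (log2 fold change 0.17, and 0.03 without control 2). Me3, the mitochondrial NADP-dependent form, was at 1.80 ± 0.18 FPKM and 1.81 ± 0.142 FPKM (SD, n = 3 each).

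The promoters of the 33 genes were searched for motifs as a description of their sequence. RefSeq sequences on GRCm38.p6 gave 40 windows of 250 bases before a start site for 31 of the 33 genes, not for Idh3a and Me2. On either strand, the NRF1 core CGCATGCG was in 2 of the 40 windows (5%) and in 1.55% of all 32851 windows, and the oestrogen-related receptor site TCAAGGTCA in 0 of 40 and in 0.387%. The 2 windows with the core are overlapping windows of Ogdh and hold 1 and the same site. A longer form searched first, the core between a G and a C, was in 0 of the 40 and in 0.782% of all windows. The ETS core CCGGAAG was in 2 of 40 (5%) and in 6.91% of all. The E-box CACGTG was in 6 of 40 (15%) and in 6.02% of all. These 6 windows hold 5 distinct sites, since overlapping windows share 1. Of the 6, 3 are at neighbouring starts of Ogdh, and the other 3 belong to Slc25a13, Slc25a1 and Pcx, so that the letters occurred in genes at both ends of the range in control 2. Those 3 windows are given 5′ to 3′ on the strand of the gene, with the E-box in capitals: Slc25a13 at chr6:6217174-6217423 (minus strand), Slc25a1 at chr16:17928220-17928469 (minus strand) and Pcx at chr19:4510222-4510471 (plus strand).
Slc25a13: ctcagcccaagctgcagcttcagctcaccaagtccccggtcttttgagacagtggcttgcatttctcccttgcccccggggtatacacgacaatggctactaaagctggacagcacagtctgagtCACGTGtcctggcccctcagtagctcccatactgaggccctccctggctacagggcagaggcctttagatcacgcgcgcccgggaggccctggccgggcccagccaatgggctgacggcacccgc
Slc25a1: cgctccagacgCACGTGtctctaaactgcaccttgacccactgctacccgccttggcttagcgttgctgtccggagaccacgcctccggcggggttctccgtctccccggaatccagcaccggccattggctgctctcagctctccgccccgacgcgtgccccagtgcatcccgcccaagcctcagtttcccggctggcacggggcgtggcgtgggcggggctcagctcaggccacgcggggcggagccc
Pcx: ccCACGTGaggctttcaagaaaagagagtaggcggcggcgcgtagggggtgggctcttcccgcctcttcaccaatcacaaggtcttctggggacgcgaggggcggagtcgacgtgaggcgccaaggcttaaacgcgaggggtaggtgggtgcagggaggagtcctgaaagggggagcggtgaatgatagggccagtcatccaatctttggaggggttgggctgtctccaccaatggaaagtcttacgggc
A match is a run of letters in a window and does not show binding. Control 2 is 1 library that also held markers of other tissue, and a link between these letters and its levels was not tested.

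Other genes of the pathway were counted by role. Of 35 tested genes for further cycle enzymes and their assembly factors, pyruvate dehydrogenase kinases and phosphatases, lipoate transfer, other NADH and dicarboxylate routes and anaplerosis, 0 passed the test (limma). The fold change was above 0 for 23 and below 0 for 12, with a median of 0.10. Without control 2 the split was 13 and 22 and the median -0.06. Pdk4, a kinase that inactivates pyruvate dehydrogenase and is induced by fasting and fatty acids, had the lowest unadjusted p among them. It was at 53.7, 58.4 and 97.5 FPKM in control and 93.2, 79.2 and 137 FPKM in the STZ group (log2 fold change 0.57, SE 0.29; BH-adjusted p = 0.922 by limma), with overlapping groups and 0.47 without control 2. Pdk2 had a log2 fold change of 0.29, and 0.03 without control 2.

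Among cycle assembly factors Sdhaf1 had groups that did not overlap, at 2.61 ± 0.112 and 2.26 ± 0.198 FPKM (log2 fold change -0.15; BH-adjusted p = 0.922 by limma), where 3.62% of all genes tested separate with STZ lower. Sdhaf2 had a log2 fold change of 0.19, and 0.03 without control 2. Gpd1, the cytosolic enzyme of the glycerol phosphate shuttle, was at 11.0, 49.3 and 7.21 FPKM in control and 8.47, 7.36 and 9.36 FPKM in the STZ group. It was highest in control 2, as Pcx and Slc25a1 were. Slc16a1, a monocarboxylate carrier, had a log2 fold change of 0.36 that was -0.003 without control 2. The lipoate genes Iba57 and Lipt2 had log2 fold changes of 0.15 and -0.12, and 0.08 and -0.19 without control 2. The anaplerotic genes Mcee and Pcca had 0.16 and -0.09, and 0.27 and -0.07 without control 2.

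Control 2 was also the lowest heart for 3 neighbouring pathways. Each gene's log2(FPKM + 1) was set against its mean of the 6 hearts, and the median of these differences was -0.53 in control 2 for the 33 genes, -0.44 for 20 respiratory chain genes, -0.50 for 15 fatty acid oxidation genes and -0.39 for 16 glycolysis genes, and -0.99 for cardiomyocyte markers. In the other 5 hearts this level lay between 0.04 and 0.21 for the 33 genes. Median fold changes were 0.08, 0.15 and 0.15 for the respiratory chain, fatty acid oxidation and glycolysis, and -0.07, -0.08 and 0.01 without control 2, with 0 genes past the threshold in each list (limma). The members of lowest unadjusted p in the respiratory chain were Ndufv1 and Ndufs1, with log2 fold changes of 0.19 and 0.21, and of 0.06 and -0.06 without control 2. In fatty acid oxidation they were Cpt1a and Hadha, at 0.35 and 0.31, and 0.19 and 0.01 without control 2. In glycolysis they were Aldoc and Pgam1, at 0.34 and -0.24, and 0.26 and -0.12 without control 2.

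**Figure D4:**
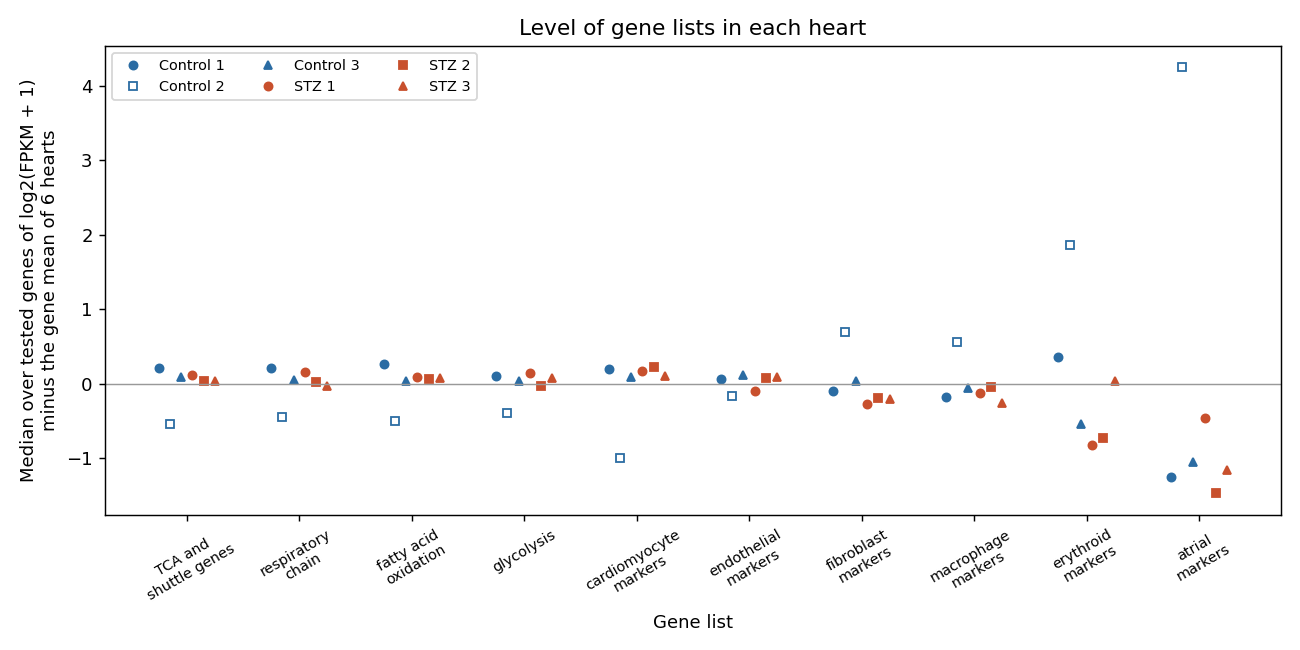
Median over tested genes of log2(FPKM + 1) minus the gene mean of the 6 hearts, for the 33 genes (TCA and shuttle genes), 3 neighbouring pathways and 6 marker lists, by heart. Control 2 (open squares) is at -0.53 for the 33 genes and -0.99 for cardiomyocyte markers, and at 4.25 for atrial markers.

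Without knowing whether counting used strand, reads of genes that overlap on opposite strands cannot be told apart. In GENCODE M21, exons of 8 of the 33 genes overlap those of a gene on the other strand. For Slc25a11 the overlap is 189 bases with Rnf167, at 9.76 FPKM, and for Pdha1 it is 603 bases with Map3k15, at 0.377 FPKM, each far below the level of the gene itself.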

How the data were processed

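One table with gene values of all 6 hearts was used. The build was GRCm38 (mm10), per the submitters' processing notes. What aligned and counted the reads, and whether strand was used, is not given in the sources used here. The authors deposited FPKM-type values, an interpretation from the table's abbreviation and from the values: times gene length, 100% of values above 0 gave whole reads (tolerance 0.01 reads). Columns were matched to samples by title and groups taken from the treatment labels.

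Groups were compared on log2(FPKM + 1) with limma 3.58.1 (R 4.3.3; trended variance; no covariate). The 12431 genes that reached 1 FPKM in 3 samples or more were tested, two-sided, and p-values were BH-adjusted over them at a threshold of 0.05. Fold changes on this scale understate those of low genes. All 33 genes passed the filter. Single ratios had exact permutation tests over 20 assignments. Members and lists were chosen with earlier results of these data known. All members were described by role. Values of each heart were given for those at a mean of 50 FPKM or more, with separated groups, in a ratio, or turning direction by over 0.1 without 1 heart, and in other lists the 2 genes of lowest p were named. Where a symbol had more than 1 row, the row with the highest mean was used. Pseudogene copies were found with blastn 2.17.0 (90% identity over 50% of the copy) in GENCODE M21. The fit was also run on simulated counts, with 1 dispersion for all genes, no library set apart and changes larger than those of the 33 genes. Its power for changes of the size seen here was thus not tested. No pair of replicate libraries agreed within sampling noise (chi-square per degree of freedom at least 11.8).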

Additional observations from a re-analysis of the deposited data

How the results depend on the processing

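The count of 0 genes past the threshold was the same under all 18 alternatives. The median log2 fold change of 0.13 lay between -0.08 and 0.27 over fits without 1 heart, the lowest without control 2. It was -0.27 when hearts were centred on their cardiomyocyte markers, where the median of all genes was -0.37. In that setting 13 of the 33 genes had separated groups, a larger share than the 11.2% of all genes. The markers subtracted had a median level of -0.99 in control 2, so this setting also rests on that heart. The count of 1 gene with separated groups was 2 with recovered read totals (7.98% of all genes) or voom (7.82%). With recovered read totals these 2 were Idh1 (STZ lower) and Slc25a13 (STZ higher), and Me2 overlapped. The count was 2 to 9 over fits without 1 heart, where 13.9% to 22.7% of all genes separate: 9 without control 1 (20.4%) and 2 without control 3 (22.7%). With the replicate number as a block the median was 0.13 and no direction changed. Deviations of same-numbered hearts correlated at -0.041 to 0.092, and those of other pairs at -0.139 to 0.081. With 3 hearts per group and control 2 set apart, this cannot exclude that same-numbered hearts share a litter or batch. Centring on markers, recovered totals and voom were chosen after seeing the data, voom in place of a planned count model that the unit does not allow.

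Array weights, which gave control 2 a weight of 0.146, turned 21 directions: -0.0900 for Aco1, -0.032 for Cs, -0.037 for Dlat, -0.12 for Dld, -0.10 for Dlst, -0.095 for Fh1, -0.011 for Got1, -0.084 for Got2, -0.14 for Idh3a, -0.079 for Idh3b, -0.13 for Mdh1, -0.073 for Mdh2, -0.00199 for Me1, -0.036 for Ogdh, -0.11 for Pdha1, -0.12 for Pdhb, -0.12 for Pdhx, -0.086 for Slc25a11, -0.099 for Sucla2, -0.0696 for Suclg1 and -0.059 for Suclg2. Aco1 was at -0.023 with quantile normalization, -0.055 with recovered totals and -0.065 with voom, and Me3 at -0.034 with recovered totals and -0.059 with voom. Ogdhl was at 0.77 with a pseudocount of 0.1 and 0.90 with array weights, and Pcx at -0.77 and -0.12, and at -0.88 with voom.

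Over fits without 1 heart, log2 fold changes that turned direction ran from -0.083 to 0.068 for Aco1, -0.021 to 0.43 for Cs, -0.046 to 0.41 for Dlat, -0.13 to 0.28 for Dld, -0.0800 to 0.37 for Dlst, -0.12 to 0.29 for Fh1, -0.056 to 0.40 for Got2, -0.14 to 0.27 for Idh3a, -0.075 to 0.22 for Idh3b, -0.035 to 0.20 for Idh3g, -0.14 to 0.31 for Mdh1, -0.067 to 0.34 for Mdh2, -0.033 to 0.058 for Me3, -0.29 to 0.091 for Mpc1, -0.061 to 0.58 for Ogdh, -0.13 to 0.33 for Pdha1, -0.14 to 0.22 for Pdhb, -0.0899 to 0.23 for Pdhx, -0.076 to 0.43 for Slc25a11, -0.12 to 0.25 for Sucla2, -0.052 to 0.26 for Suclg1 and -0.094 to 0.39 for Suclg2. The lowest value was that without control 2 in each. Ratios ran from -0.14 to 0.10 for Got2 to Got1, -0.11 to 0.029 for Idh3b to Idh3g, -0.34 to 0.13 for Mpc2 to Mpc1 and -0.40 to 1.21 for Ogdhl to Ogdh.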
